A study of Mus musculus with 6 samples.

Results

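The genes of the class I and class II histone deacetylases, Hdac1 to Hdac10, were followed in the dental pulp of WT mice and of mice that lack the collagenase MMP13. They were taken by gene symbol, and each of the 10 symbols matched 1 of the 53342 genes in the deposited table. All 10 passed the filter on low counts that left 24534 genes for testing. In MMP13KO pulp, 5 class II genes (Hdac4, Hdac5, Hdac6, Hdac7 and Hdac10) were lower and the class I genes Hdac1 and Hdac2 were higher. Hdac3, Hdac8 and Hdac9 did not pass the test. Such calls were common, since 24.3% of all genes tested were called lower and 27.3% higher. After a correction of each sample for the GC content of the transcripts, Hdac1 was still higher and Hdac4 still lower. The other 5 called members no longer passed. Under that correction 8851 of the 24534 genes tested were called.

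Histone deacetylases remove acetyl groups from lysines on histone tails and on other proteins, and histone acetyltransferases add them. Loss of histone acetylation is in general linked to more compact chromatin and lower transcription. Class I enzymes are mostly nuclear, broadly expressed and work inside corepressor complexes. Class IIa enzymes have little catalytic activity of their own, bind transcription factors such as those of the MEF2 and RUNX families, and move out of the nucleus when kinases phosphorylate them and 14-3-3 proteins bind. In the skeleton HDAC4 restrains chondrocyte hypertrophy, and class IIa enzymes have been linked to the control of Mmp13 in bone cells, which is the reason the study gave for examining them in teeth.

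Pulp is the soft connective tissue inside the tooth and is lined by odontoblasts, the cells that make dentin. Pulp RNA came from 3 WT mice (replicates 2, 4 and 5) and 3 MMP13KO mice (replicates 1, 2 and 6), all aged 3 months and on the C57BL/6 strain. MMP13KO mice are homozygous for a knockout of Mmp13 that the study calls global, so it is not limited to pulp. Which part of the gene was altered is not stated by the study. No other allele or agent is named for either genotype. Molars and a column kit are named in the sample labels, incisors and TRIzol in the methods, and both are recorded here without a choice. The sample titles name molars for the WT samples only and no tooth for the MMP13KO samples. Whether the tooth type was the same in both genotypes cannot be told from these titles. The samples are whole tissue, in which fewer cells of a type and less RNA per cell cannot be told apart.

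Hdac5 had the highest mRNA level per kilobase of the 10 genes in WT pulp and the largest fall, and it is also the member for which the study designed mouse qRT-PCR primers. The pair is shown because it fixes which part of the gene that assay reads.
Hdac5 forward: accagcagttcctggagaagca
Hdac5 reverse: tccgtcagctcctcttctgtct
Both primers have 22 bases and match the minus strand transcripts of chromosome 11 in GRCm38, the forward primer at chr11:102202572-102202593 and the reverse primer at chr11:102202261-102202282. They lie in neighbouring exons (14 and 15 in a protein-coding transcript of 4269 bases) and span an intron, with an amplicon of 124 bases and a GC content of 58.1%. Of 20 annotated Hdac5 transcripts, 6 hold both sites. The counts reported below were made over the whole gene and do not separate these transcripts.

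Promoter sequence from RefSeq (250 bases before to 50 after an annotated start) was used for 7 members on GRCm38.p6. It is shown for the largest fall, for the fall that remained after the GC correction and for a class I gene that was higher. The promoters of Hdac1, Hdac3 and Hdac10 are not shown. Capitals mark the GC box GGGCGG, the E-box CACGTG and the MEF2 element on either strand, and no marked motif overlaps another.
Hdac5, chr11:102230123-102230422, minus strand: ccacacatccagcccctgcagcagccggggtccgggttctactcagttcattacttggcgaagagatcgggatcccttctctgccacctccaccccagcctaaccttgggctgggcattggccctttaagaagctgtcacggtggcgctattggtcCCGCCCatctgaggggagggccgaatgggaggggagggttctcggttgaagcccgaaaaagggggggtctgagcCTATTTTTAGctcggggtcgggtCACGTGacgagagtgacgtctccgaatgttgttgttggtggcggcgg
Hdac4, chr1:92180292-92180591, minus strand: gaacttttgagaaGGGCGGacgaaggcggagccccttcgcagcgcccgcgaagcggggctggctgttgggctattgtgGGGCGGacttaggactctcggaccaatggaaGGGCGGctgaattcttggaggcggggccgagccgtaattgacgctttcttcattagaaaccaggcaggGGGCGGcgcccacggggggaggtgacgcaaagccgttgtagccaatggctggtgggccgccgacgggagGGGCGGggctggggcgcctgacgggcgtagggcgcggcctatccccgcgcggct
Hdac2, chr10:36974294-36974593, plus strand: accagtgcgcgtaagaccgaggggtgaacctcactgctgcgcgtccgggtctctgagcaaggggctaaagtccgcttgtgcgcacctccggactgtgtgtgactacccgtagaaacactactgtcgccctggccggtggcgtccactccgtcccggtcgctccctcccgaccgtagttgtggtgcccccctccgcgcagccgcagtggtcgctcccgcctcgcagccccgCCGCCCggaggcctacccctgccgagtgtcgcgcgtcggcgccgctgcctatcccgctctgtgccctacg
The Hdac5 window holds 1 GC box, 1 E-box and 1 MEF2 element, the Hdac4 window 5 GC boxes and the Hdac2 window 1 GC box. Among all 32851 promoters of the same length, 35.7% hold a GC box, 7.15% the E-box and 0.557% the MEF2 element. Hdac5 was the only member with a MEF2 element in these windows. Its window has a GC content of 60.7%, that of Hdac4 68.0% and that of Hdac2 69.7%, beside a median of 52.7% over all promoters. A match of letters is a description of the window and not a measured binding site.

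Each sample held between 21561420 and 29980236 estimated counts, with WT at 28442936 or more and MMP13KO at 26547121 or less. Mmp13 itself was at 826 to 1072 normalized counts (counts scaled to a common library size) in WT and at 8.85 to 64.0 in MMP13KO, a log2 fold change of −4.96 (SE 0.46, edgeR adjusted p 7.7e-05). The odontoblast gene Dspp was abundant in every sample, at 14331 to 45018 normalized counts in WT and 42972 to 66246 in MMP13KO, and Dmp1 at 4285 to 5454 and 3953 to 4811. MMP13KO sample 6 stood apart, with 30.5% of its counts in the single gene Gm10800 against at most 6.9% in the top gene of any other sample. That 6.9% was also Gm10800, in MMP13KO sample 2. The top gene was Ttn in MMP13KO sample 1, at 4.5%, and in all WT samples, at 5.2% to 6%. Odorant and vomeronasal receptor genes, whose known expression is mainly in olfactory tissue, took 17.8 to 20.8 CPM, their share of all counts on a common scale, in WT and 308, 356 and 1200 in MMP13KO samples 1, 2 and 6.

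Calls were made at an adjusted p under 0.05 in edgeR's quasi-likelihood test, with the adjustment over all genes tested. By that rule 7 of the 10 members were called, 2 higher and 5 lower in MMP13KO. The background was high, since 51.6% of all genes tested were called, 27.3% higher and 24.3% lower. The values of the 3 WT and 3 MMP13KO samples did not overlap for the same 7 members, as they did not for 60.9% of all genes tested. The member counts in either direction, and without overlap, are thus to be read against a background in which such calls were common. A fall of more than 2-fold was called for Hdac5 and Hdac7 and for 9.68% of all genes tested. Without MMP13KO sample 6 there were 8 members called, Hdac8 being added, and the 2-fold calls numbered 2. That fit called 12767 of 24934 genes tested. The median log2 fold change of the 10 members was −0.45, beside 0.10 over all genes tested.

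**Figure D1:**
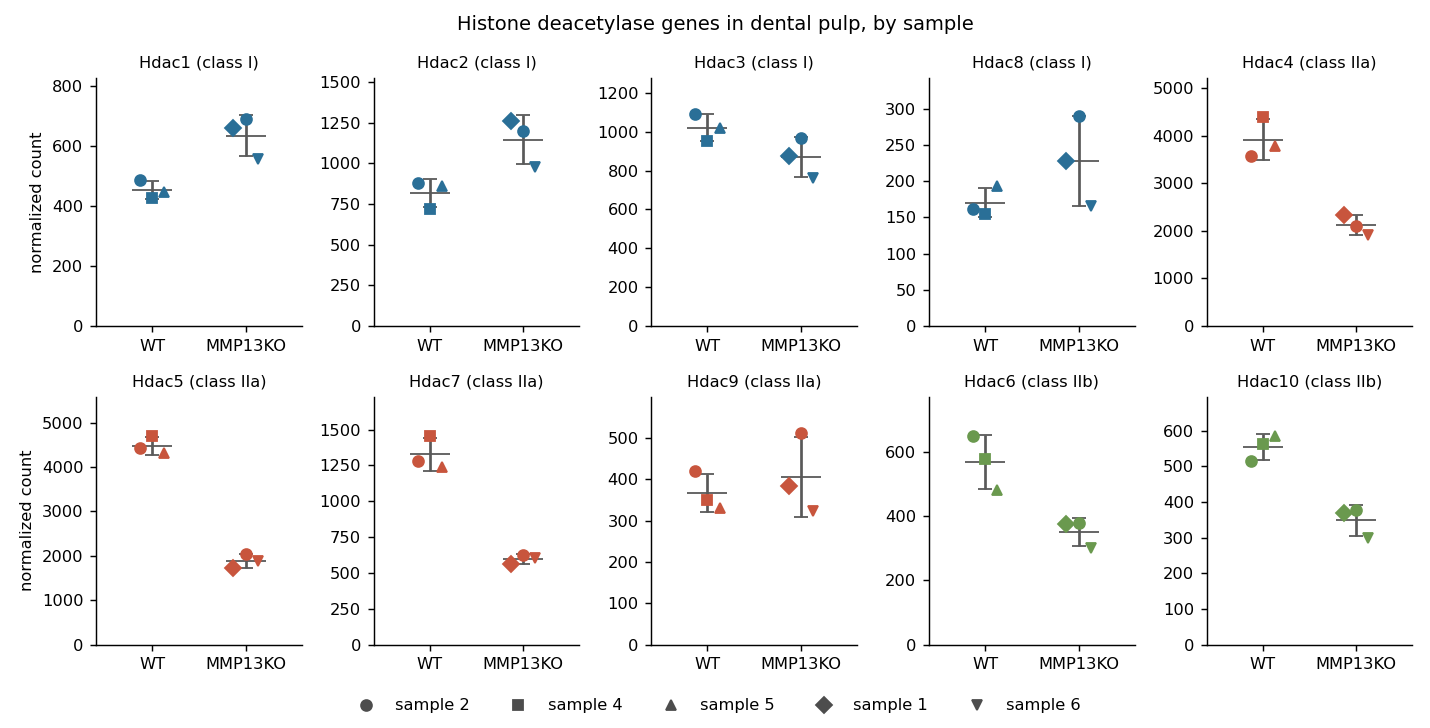
Normalized counts (counts scaled to a common library size, y axis from 0) of the 10 genes in each WT and MMP13KO sample, with the mean as a horizontal line and the SD as bars (n = 3). WT and MMP13KO samples are apart for Hdac4, Hdac5, Hdac7, Hdac6, Hdac10, Hdac1 and Hdac2 and overlap for Hdac3, Hdac8 and Hdac9.

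Among the class IIa genes, 3 of 4 were lower in MMP13KO. Hdac5 (ENSMUSG00000008855, chr11:102194432-102230166, minus strand) encodes a signal-dependent repressor of MEF2 target genes. It was at 4424, 4700 and 4313 normalized counts in WT samples 2, 4 and 5 and at 1713, 2030 and 1879 in MMP13KO samples 1, 2 and 6. Every MMP13KO sample was far below every WT sample, and the SD was small in both groups (4479 ± 199 and 1874 ± 159, n = 3). The log2 fold change was −1.26 (SE 0.15, adjusted p 0.000166), or 2.39-fold lower.

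Hdac7 (ENSMUSG00000022475, chr15:97792664-97844502, minus strand), known for its roles in endothelial cells and developing lymphocytes, was at 1284, 1458 and 1240 normalized counts in WT and at 562, 625 and 603 in MMP13KO. The 3 MMP13KO samples lay close together, below all WT samples. The log2 fold change was −1.15 (SE 0.14, adjusted p 0.000173), or 2.22-fold lower. Its exons share 29 bases with Slc48a1 on the opposite strand.

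Hdac4 (ENSMUSG00000026313, chr1:91928779-92195699, minus strand) encodes the class IIa enzyme best known from cartilage and muscle. It was at 3565, 4402 and 3787 normalized counts in WT and at 2333, 2113 and 1918 in MMP13KO. The groups did not overlap, and the log2 fold change was −0.88 (SE 0.15, adjusted p 0.00125), or 1.85-fold lower. The antisense gene Gm26720 shares 3536 exon bases with Hdac4, and since the sources used here do not say whether counting used strand, reads of the pair cannot be separated with certainty. Gm26720 was at 37.1 to 152 estimated counts over the 6 samples, a small number beside the 1211 or more of Hdac4.

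Hdac9 (ENSMUSG00000004698, chr12:34047580-34917095, minus strand), whose truncated isoforms act as MEF2 corepressors without a deacetylase domain, was at 419, 349 and 331 normalized counts in WT and at 383, 511 and 323 in MMP13KO. The groups overlapped, with a log2 fold change of 0.15 (SE 0.19, adjusted p 0.526). Its value therefore lay apart from those of the other class IIa genes, although no test of that difference was made.

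Among the class I genes, Hdac1 and Hdac2 were higher in MMP13KO. Their products are close paralogs and form the catalytic core of the Sin3, NuRD and CoREST complexes. Hdac1 (ENSMUSG00000028800, chr4:129516104-129542713, minus strand) was at 486, 426 and 446 normalized counts in WT and at 659, 689 and 558 in MMP13KO, 1.40-fold higher with a log2 fold change of 0.49 (SE 0.14, adjusted p 0.0162). Hdac2 (ENSMUSG00000019777, chr10:36974544-37001889, plus strand) was at 879, 721 and 861 in WT and at 1260, 1202 and 977 in MMP13KO, also 1.40-fold higher, with a log2 fold change of 0.48 (SE 0.15, adjusted p 0.0222). For both genes MMP13KO sample 6 was the lowest of its group and nearest to WT.

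Both class I calls depended on which samples were used. Without MMP13KO sample 6 the log2 fold changes were 0.58 for Hdac1 (adjusted p 0.00555) and 0.59 for Hdac2 (adjusted p 0.00538). Leaving out any one of the other 5 samples ended both calls, with log2 fold changes of 0.37 to 0.47 for Hdac1 (adjusted p 0.0556 to 0.121) and 0.35 to 0.46 for Hdac2 (adjusted p 0.0731 to 0.153). The falls of Hdac4, Hdac5, Hdac6, Hdac7 and Hdac10 were called in all 6 of these fits. Hdac1 has processed pseudogenes with which it could share reads, Gm10093 (99.4% identity over 1444 bases) and Gm4864 (94.6% over 1469 bases). A further copy, AC125456.1 (96.3% over 1450 bases), has no counts here and could not be added. The former pair held at most 26.6 estimated counts in any sample, and adding them to Hdac1 gave a log2 fold change of 0.54 (adjusted p 0.00817).

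Hdac3 and Hdac8 did not pass the test. Hdac3 (ENSMUSG00000024454, chr18:37935844-37955016, minus strand), the catalytic subunit of the NCoR corepressor complex, was at 1091, 950 and 1021 normalized counts in WT and at 874, 967 and 762 in MMP13KO. A single MMP13KO sample, replicate 2, reached into the WT range, and the log2 fold change was −0.23 (SE 0.14, adjusted p 0.195). Hdac8 (ENSMUSG00000067567, chrX:102284639-102505359, minus strand), which deacetylates the cohesin subunit SMC3, was at 162, 155 and 193 in WT and at 228, 290 and 166 in MMP13KO. Samples 1 and 2 were above WT and sample 6 was within it. The log2 fold change of Hdac8 was 0.43 (SE 0.22, adjusted p 0.125), and without MMP13KO sample 6 it was 0.61 (adjusted p 0.0258).

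Both class IIb genes were lower in MMP13KO. Hdac6 (ENSMUSG00000031161, chrX:7930120-7947889, minus strand), the cytoplasmic deacetylase of alpha-tubulin, was at 650, 579 and 483 normalized counts in WT and at 376, 378 and 301 in MMP13KO. Hdac10 (ENSMUSG00000062906, chr15:89123307-89128700, minus strand), which deacetylates polyamines, was at 515, 562 and 585 in WT and at 370, 378 and 299 in MMP13KO. In neither gene did the groups overlap. The log2 fold changes were −0.69 (SE 0.17, adjusted p 0.0061) for Hdac6 and −0.66 (SE 0.15, adjusted p 0.00463) for Hdac10.

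Compared per length, as RPKM (reads per kilobase of exon scaled by library size), WT pulp had Hdac5 at the top with 18.6 ± 0.829 (SD, n = 3). Hdac3 (9.20 ± 0.635) and Hdac4 (9.06 ± 1.0) followed and overlapped each other over the 3 samples. Hdac7 (7.18 ± 0.624), Hdac2 (6.70 ± 0.709) and Hdac10 (5.99 ± 0.383) formed a chain in which neighbours overlapped. Hdac1 (4.8 ± 0.323), Hdac6 (3.58 ± 0.527), Hdac8 (1.29 ± 0.150) and Hdac9 (0.913 ± 0.116) were each below the gene before without overlap.

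The order was different in MMP13KO pulp. Hdac2 (9.37 ± 1.22), Hdac3 (7.82 ± 0.928), Hdac5 (7.80 ± 0.660) and Hdac1 (6.74 ± 0.732) led, and each overlapped the next. Hdac4 (4.90 ± 0.480) came after them without overlap, and Hdac10 (3.77 ± 0.473), Hdac7 (3.23 ± 0.174), Hdac6 (2.21 ± 0.275), Hdac8 (1.72 ± 0.469) and Hdac9 (1.01 ± 0.239) followed. Among these, Hdac7 lay above Hdac6 without overlap, and the other neighbours overlapped, apart from Hdac4 and Hdac10. With the length of the longest coding transcript in place of all exons, Hdac5 remained at the top in WT at 33.7, while Hdac3 (15.6), Hdac5 (14.1) and Hdac2 (12.9) led in MMP13KO.

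Within each sample, the 10 genes were also set against each other, which does not depend on how samples are scaled. Class IIa genes made up 51.2% to 56.3% of the counts per kilobase of the 10 genes in WT and 33.2% to 37.6% in MMP13KO. Class I genes made up 29.5% to 34.6% and 50.7% to 54.0%, and class IIb genes 14.2% to 14.3% and 11.8% to 12.8%. Hdac5 alone held 27.2% to 28.6% in WT and 14.3% to 18.0% in MMP13KO. None of these ranges per kilobase overlapped between the genotypes. From plain counts the class IIb shares did overlap, at 7.98% to 8.64% in WT and 7.71% to 8.52% in MMP13KO.

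The ratio of class IIa to class I counts per kilobase was 1.48, 1.91 and 1.53 in WT samples 2, 4 and 5 and 0.614, 0.642 and 0.741 in MMP13KO samples 1, 2 and 6. Its mean was 1.64 ± 0.236 in WT and 0.666 ± 0.0668 in MMP13KO (SD, n = 3). All WT samples had more class IIa than class I mRNA per kilobase and all MMP13KO samples had less. The classes differ in GC content, at 42.1% to 51.2% for the transcripts of class I genes and 47.4% to 60.0% for those of class IIa genes, so the ratio is not free of what moves with GC content.

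**Figure D2:**
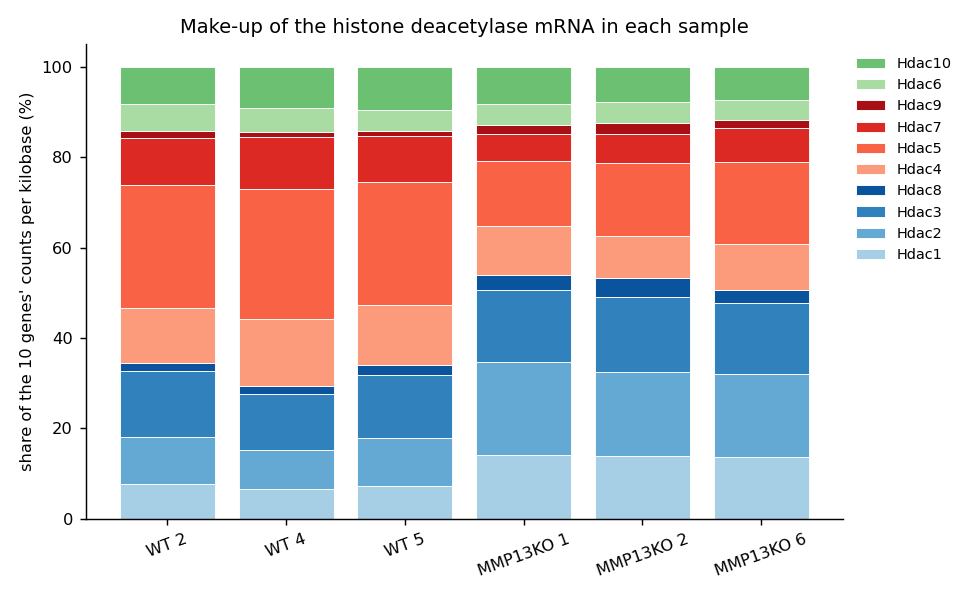
Share of each of the 10 genes in their summed counts per kilobase of exon (y axis, percent) in each WT and MMP13KO sample, with class I genes in blue, class IIa in red and class IIb in green. Class I genes fill 29.5% to 34.6% of the WT bars and 50.7% to 54.0% of the MMP13KO bars, and the Hdac5 segment falls from 27.2% or more to 18.0% or less.

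GC content moved with the genotype difference over the whole table, and it is given beside the members for that reason. The protein-coding genes tested were ordered by the GC content of their transcripts and divided into 10 groups of equal size. From the lowest to the highest group, the median log2 fold change went from 1.24 through −0.04 in group 5 to −0.94, and the share of genes called lower from 1.24% to 65.4%. Hdac5 (60.0% GC) and Hdac7 (59.7%) are both in the highest group, Hdac10 (56.6%) in group 9, Hdac6 (54.3%) in group 8 and Hdac4 (52.6%) in group 7. Hdac1 (51.2%) is in group 6, Hdac3 (49.0%) in group 5, Hdac9 (47.4%) in group 4, Hdac8 (45.2%) in group 3 and Hdac2 (42.1%) in group 1.

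Hdac1 lay furthest above the median of its own group, and Hdac8, Hdac9 and Hdac10 lay slightly above theirs. Hdac2, Hdac3, Hdac4, Hdac5, Hdac6 and Hdac7 lay below theirs. Hdac1 rose by 0.49 in a group with a median of −0.24, and Hdac4 fell by 0.88 in a group with a median of −0.41. Hdac9 (0.15 beside 0.14), Hdac8 (0.43 beside 0.40), Hdac10 (−0.66 beside −0.73) and Hdac6 (−0.69 beside −0.56) were close to theirs. Hdac3 was at −0.23 beside −0.04. Hdac5 and Hdac7, at −1.26 and −1.15, were lower than the median of −0.94, and Hdac2, at 0.48, was below its group's median of 1.24.

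**Figure D3:**
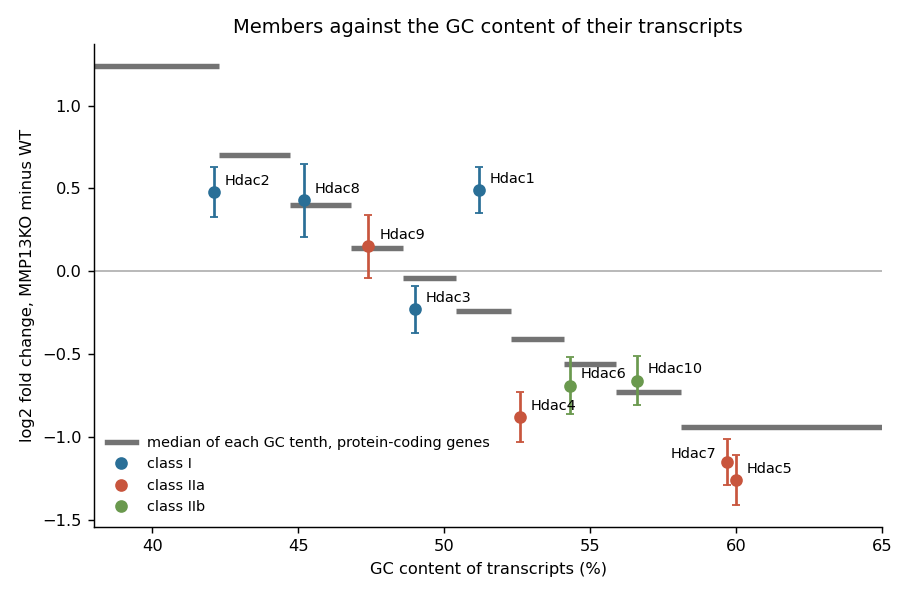
Log2 fold change (MMP13KO minus WT, bars are the standard error) of the 10 genes against the GC content of their transcripts in percent, with the median of each of 10 equal GC groups of protein-coding genes as grey lines, the outer groups drawn only within the axis. The grey medians step down from 1.24 to −0.94. Hdac1 stands furthest above the median of its group, and Hdac8, Hdac9 and Hdac10 stand slightly above theirs. Hdac2, Hdac3, Hdac4, Hdac5, Hdac6 and Hdac7 stand below theirs.

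When each sample was corrected for GC content, the number of members called went from 7 to 2 and the number called over 2-fold from 2 to 0. Of all 24534 genes tested, 8851 were called under the correction, 5590 higher and 3261 lower, against 12665 without it. Hdac1 was higher, with a log2 fold change of 0.84 (SE 0.11, adjusted p 0.000988), and Hdac4 lower, with −0.41 (SE 0.10, adjusted p 0.0153). Hdac5 was at −0.17 (SE 0.11, adjusted p 0.258) and Hdac7 at −0.08 (SE 0.10, adjusted p 0.577). Hdac6 was at −0.08 (adjusted p 0.721), Hdac3 at −0.08 (0.549), Hdac8 at 0.14 (0.575) and Hdac9 at 0.14 (0.505). Hdac2 and Hdac10 changed sign, to −0.16 (adjusted p 0.166) and 0.16 (adjusted p 0.259). The median of the 10 members was −0.08 after the correction, beside 0.19 over all genes tested. The correction removes any difference that runs with GC content, whatever its source, and which part of it arose in the tissue and which in the libraries was not tested.

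**Figure D4:**
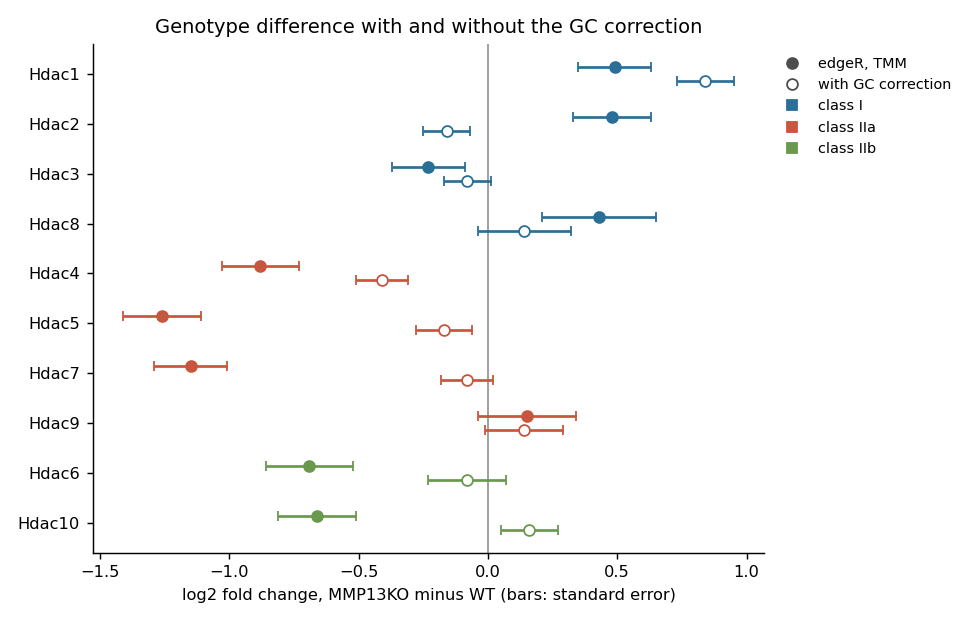
Log2 fold change (MMP13KO minus WT) of the 10 genes from edgeR with TMM scaling (filled) and with the GC correction added (open), with bars for the standard error. With the correction Hdac1 stays above 0 at 0.84 and Hdac4 below 0 at −0.41, while Hdac5 and Hdac7 move from −1.26 and −1.15 to −0.17 and −0.08.

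Counts over the lists that follow stand against the same background, 24.3% of all genes tested called lower and 27.3% higher, and each median is given before and after the GC correction, beside 0.10 and 0.19 over all genes tested. The remaining lysine deacetylases are Hdac11, the only class IV enzyme, and the NAD-dependent sirtuins. Of these 8 genes, 7 were lower, none was higher and the median log2 fold change was −0.74 (−0.20 after the GC correction). Hdac11 was at 500, 411 and 365 normalized counts in WT and at 205, 232 and 164 in MMP13KO, a log2 fold change of −1.08 (SE 0.19, adjusted p 0.00115) that was −0.21 (adjusted p 0.381) after the GC correction. Sirt2, which deacetylates tubulin and histone H4, fell from 1321 ± 136 to 637 ± 39.3 normalized counts, with a log2 fold change of −1.05 (adjusted p 0.000285), and of −0.41 (adjusted p 0.0117) after the GC correction.

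The corepressor complexes that hold Hdac1 and Hdac2 had more genes lower than higher. In the NuRD list 9 of 10 genes were lower, with a median of −0.77 (−0.19 after the GC correction). Its methyl-CpG-binding-domain subunit Mbd3 fell from 1514 ± 156 to 541 ± 53.8 normalized counts (log2 fold change −1.48, adjusted p 9.53e-05; −0.35 and 0.0264 after the GC correction). In the Sin3 list 6 of 15 genes were lower and 2 higher, with a median of −0.35 that was −0.01 after the correction. The Sin3 subunit Sap30l fell from 969 ± 111 to 321 ± 39.6 (−1.59, adjusted p 9.67e-05; −0.55 and 0.00656 after the correction), and Arid4b rose from 671 ± 84.5 to 1535 ± 138 (1.19, adjusted p 0.000215, and 0.47 and 0.00652).

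In the CoREST list 3 of 7 genes were lower and none higher, with a median of −0.35 (−0.27 after the correction), and the gene with the smallest adjusted p was Hmg20b (−1.17, adjusted p 0.000285, and −0.05 and 0.776 after the correction). Tbl1xr1 encodes a subunit of the NCoR corepressor complex, which recruits and activates HDAC3. It was at a log2 fold change of 0.47 (adjusted p 0.0283) and, after the correction, at −0.12 (adjusted p 0.336).

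Of 9 transcription factor genes that class IIa enzymes bind or act with (MEF2, RUNX, Srf and Myocd), 5 were lower and 2 higher, with a median of −0.44 that was −0.07 after the GC correction. Mef2d fell from 3863 ± 273 to 1374 ± 276 normalized counts (log2 fold change −1.49, adjusted p 0.000185) and was at −0.63 (adjusted p 0.00677) after the GC correction. Myocd, a coactivator of smooth and cardiac muscle genes, rose from a low level of 16.9 ± 11.5 to 60.9 ± 41.1 (1.81, adjusted p 0.028, and 2.08 and 0.0443). Mef2c, named after its values were seen because its fall grew under the correction, was at −0.65 (adjusted p 0.0298) before and −1.25 (adjusted p 0.000572) after it.

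Of 15 kinases that phosphorylate class IIa enzymes and so promote their export from the nucleus, 8 were lower and 2 higher, with a median of −0.62 (−0.29 after the GC correction). Camk2b, a calcium-dependent kinase abundant in muscle and nerve, fell from 1948 ± 200 to 520 ± 75.6 normalized counts (log2 fold change −1.90, adjusted p 5.02e-05, and −1.12 and 0.00029 after the correction). Camk4 rose from 93.7 ± 19.1 to 237 ± 41.1 (1.33, adjusted p 0.000874, and 1.63 and 0.00223). Among 7 genes of the 14-3-3 proteins, which hold phosphorylated class IIa enzymes in the cytoplasm, Ywhag was lower (−1.20, adjusted p 0.00119) and Ywhaq higher (0.61, adjusted p 0.0079). Both were called in the same direction after the correction, at −0.87 and 0.50, and the median of the 7 was 0.04 before and 0.16 after it.

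The genes of the opposing enzymes were examined in the same way. Of 12 histone acetyltransferases 6 were lower and 1 higher, with a median of −0.37 (−0.16 after the correction). The higher one, Hat1, which acetylates newly made histone H4, rose from 110 ± 12.5 to 459 ± 47.4 normalized counts (log2 fold change 2.06, adjusted p 4.9e-05, and 1.28 and 0.000391 after the correction). Kat2a, the catalytic subunit of SAGA, was at −0.94 (adjusted p 0.000739) and −0.05 (adjusted p 0.761).

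**Figure D5:**
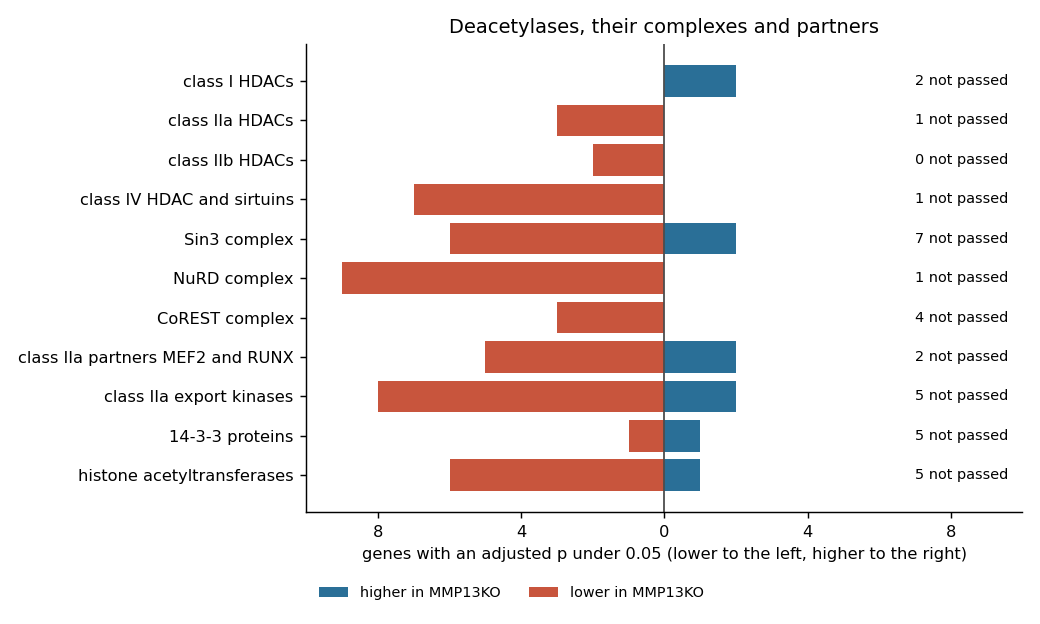
Number of genes in each list shown that were lower (left) or higher (right) in MMP13KO at an adjusted p under 0.05 in edgeR with TMM scaling, with the number that did not pass at the right. NuRD has 9 lower of 10 and class IV with the sirtuins 7 of 8, while class I HDACs have 2 higher and none lower.

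Markers of other cell types moved between the genotypes, and several members have known roles in those cells. Summed over 14 skeletal muscle markers, the level was 61710 to 71082 CPM in WT and 11182 to 25923 in MMP13KO, and 13 of the 14 were lower, with a median log2 fold change of −1.66 (−1.01 after the GC correction). Of 10 endothelial markers 6 were lower and 1 higher, at 478 to 537 summed in WT and 315 to 442 in MMP13KO, and their median of −0.55 was 0.05 after the correction. Of 10 B cell markers 9 were higher (46.8 to 52.1 and 77.6 to 113 summed), and of 10 neutrophil markers also 9 (143 to 299 and 725 to 1771). Of 10 erythroid markers 9 were found and 7 higher (900 to 1465 and 2121 to 3982), and of 15 proliferation markers 13 (142 to 192 and 374 to 617). The medians of the B cell, neutrophil, erythroid and proliferation lists were 2.24, 1.65, 1.29 and 1.38, and 2.56, 2.40, 2.04 and 1.41 after the correction.

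Among 12 odontoblast markers 4 were higher and 5 lower, at 55376 to 62072 CPM summed in WT and 17410 to 23023 in MMP13KO. That sum is mostly Col1a1 and Col1a2, collagen genes that other connective tissue cells also express and that are named after their values were seen. Col1a1 was at 1089141 normalized counts on average in WT and 243189 in MMP13KO, and Col1a2 at 459437 and 192218. The 4 that were higher were Dspp, Ibsp, Mepe and Phex, the last 3 at log2 fold changes of 1.56, 2.35 and 1.68. The 5 that were lower were Col1a1 (−2.16), Col1a2 (−1.26), Nes (−1.21), Dlx3 (−0.98) and Sp7 (−0.75). Apart from Dspp, these genes are named after their values were seen. The median of the 12 was −0.31 before and 0.16 after the GC correction. Dspp was at a log2 fold change of 1.13 (SE 0.40, adjusted p 0.037) with overlapping groups, and Dmp1 at −0.22 (SE 0.17, adjusted p 0.292). Of 8 Schwann cell markers 2 were lower, at 100 to 342 summed in WT and 102 to 122 in MMP13KO, with a median of −0.58 before and −0.03 after the correction. No marker was at 0 in all samples. The part of muscle, endothelial, blood and dividing cells in the falls of Hdac4, Hdac5 and Hdac7 and in the rises of Hdac1 and Hdac2 was not tested.

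The 5 protein-coding genes whose pattern over the 6 samples was most like that of Hdac5, among 2418 of similar level, were Ski, Phldb1, Ralgds, Pcnx3 and Mapt. Their root mean square differences from it, in log2 CPM centred on each gene's mean, were 0.052, 0.058, 0.060, 0.064 and 0.067. Ski, a repressor of TGF-beta and BMP signalling, was at 5723, 6721 and 5805 normalized counts in WT and at 2408, 2717 and 2454 in MMP13KO. All 5 were lower in MMP13KO, with log2 fold changes of −1.18 to −1.27, and their transcripts have GC contents of 54.4% to 60.0%. With 1 contrast of 3 against 3 samples, likeness here means mainly a fall of about the same size.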

How the data were processed

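RNA sequencing was performed on pulp of 3 WT and 3 MMP13KO mice, as independent biological samples grouped by the genotype in their labels. The authors derived the deposited estimated counts, which carry fractions, in Strand NGS. Deposited with them are normalized values on the log2 scale, which were equal to a recomputation from the counts to within 0.001 for 100% of 320052 values. The labels name the build mm10 and the tool DESeq, while aligner and annotation release are not given in the sources used here.

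Counts were rounded and tested across all genes in edgeR 4.0.16 (R 4.3.3) by the quasi-likelihood test with TMM factors, no covariates and Benjamini-Hochberg adjustment, after its expression filter by genotype. The SE is the log2 fold change divided by the root of the F statistic. Exon length, position and GC content came from GENCODE M21 on GRCm38, matched by identifier for 99.8% of genes. GC correction used a loess fit per sample (span 0.4, genes with a mean log2 CPM over 3) as offsets. The detection floor of 3 counts corresponded to 0.1 to 0.139 CPM, every member was far above it, and errors are SDs between the samples of a genotype. Genes named by rule are the 10 members, Hdac11, Mmp13, Dspp, Dmp1 and the 5 genes most like Hdac5. The rule also covers the called gene with the smallest adjusted p in each direction of each list other than the cell type markers. Mef2c and the odontoblast markers named besides Dspp and Dmp1 were named after their values were seen. Copies were sought with blastn (at least 500 bases and 90% identity). Alternatives were RLE and upper-quartile factors, total counts, protein-coding genes, 2 other filters, DESeq2 1.42.0, limma 3.58.1 on the deposited log2 values, a rebuilding of the study's gene-by-gene procedure as far as it is stated, GC correction, subtraction of a background rate from 1452 receptor genes, and each sample left out in turn. The fits were tested on simulated data with 200 changed genes. Some genes of the lists are not reported here. The members and lists were chosen with earlier results of these data known.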

Additional observations from a re-analysis of the deposited data

How the results depend on the processing

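No paired analysis was possible because the genotypes share only the replicate number 2. Over the alternatives tried for the 10 log2 fold changes, 145 values kept their direction and their side of the threshold, 27 kept their direction and lost the call, 3 gained it and 6 changed sign, 4 of which also lost the call. With total counts 2 members were called, with limma on the deposited values 3, and with the GC correction, alone or with background subtraction, 2. Over all genes, total counts called 9957 of 24534 tested and limma 12047 of 48613. The GC correction called 8851 of 24534, and 7687 of 22857 with background subtraction. Over 2-fold, upper-quartile factors left 1 and the GC correction, with or without background subtraction, 0. Leaving out 1 sample gave 5 to 8 members called, and 2 to 3 over 2-fold, the third being Hdac4 without WT replicate 2 or MMP13KO replicate 1 (−1.02 in both). Over all genes, the fits with 1 sample left out called 10915 to 12864 of the 24934 to 26956 tested. In these fits log2 fold changes spanned 0.37 to 0.58 for Hdac1, 0.35 to 0.59 for Hdac2, 0.17 to 0.61 for Hdac8 and −0.10 to 0.29 for Hdac9.

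Calls lost with total counts were Hdac1 (0.62), Hdac2 (0.62), Hdac4 (−0.76), Hdac6 (−0.56) and Hdac10 (−0.53). Calls lost without a filter were Hdac1 and Hdac2 (0.38 each), and with limma Hdac1 and Hdac2 (0.42 each), Hdac6 (−0.75) and Hdac10 (−0.73). With the GC correction, values were −0.16 for Hdac2, −0.17 for Hdac5, −0.08 for Hdac6 and Hdac7 and 0.16 for Hdac10. With background subtraction as well they were −0.13 for Hdac2, −0.14 for Hdac5, −0.12 for Hdac6, −0.09 for Hdac7, −0.02 for Hdac9 and 0.16 for Hdac10. Calls gained were Hdac3 under a gene-by-gene equal-variance test with Storey's q, a rebuilding of the study's procedure as far as its methods state it (−0.30), and Hdac8 with upper-quartile factors (0.62) and without MMP13KO replicate 6. From plain counts the mean ratio of class IIa to class I was 4.13 in WT and 1.75 in MMP13KO. The causes were not tested.

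Of all called genes 53.0% were higher in the main analysis. This share was 69.2% from total counts, 63.9% from upper-quartile factors, 65.9% without a filter, 64.1% by DESeq2, 68.6% by limma, 65.4% by the gene-by-gene test and 63.2% with the GC correction. Genes called numbered 12665 in the main analysis, 19292 without a filter, 22979 by the gene-by-gene test and 8851 with the GC correction. All genes tested had a median of 0.10 with TMM, 0.32 under upper-quartile scaling and 0.21 from total counts. A change of factors moves all genes nearly alike. Relative to the median, Hdac5 was at −1.36 and Hdac1 at 0.39 with TMM, and at −0.36 and 0.65 with the GC correction.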
